A study of Homo sapiens with 12 samples.

Results

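The genes described here were 47 interferon-stimulated effector genes, a chosen set that covers the IFI, IFIT, IFITM, OAS, MX and GBP families, the ISG15 pathway, a PARP and TRIM group and single effectors. They were found among the 19775 genes that the arrays name by the gene symbol of each probe set in the platform annotation, and each gene was represented by its brightest probe set over the 12 arrays. All 47 had a probe set, and 44 of them were among the 13225 genes bright enough to be tested. RSAD2, CMPK2 and RTP4 lay below that filter of 5.46 log2 and are described without a test in the main analysis. Another 3 members, IFI44L, OAS1 and USP18, had a control mean at or below the filter and passed it through the arrays of the knockdown groups, so the 44 genes are those that passed and not the whole set.

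The cells were MDA-MB-231, an established human breast cancer line of the triple-negative, mesenchymal type, in 3 groups of 4 arrays. One group received a control siRNA, and the others received siRNA mix 1 or siRNA mix 2 against both YAP (gene YAP1) and TAZ (gene WWTR1), all at 33 nM on day 2 with medium change on day 3 and harvest on day 4. YAP and TAZ are coactivators that work mainly with TEAD factors downstream of the Hippo kinases, and the series asks what their joint loss does to gene expression. The replicates A to D of each group were plated separately and handled side by side; all come from 1 cell line, so p-values measure the spread between cultures of it. The cells were seeded sparsely, and the siRNA sequences of the mixes were not used here.

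Type I and type III interferons act through receptors and JAK kinases on a complex of STAT factors with IRF9, which binds the interferon-stimulated response element (ISRE) in front of its target genes. Interferon gamma acts through a STAT dimer at another element, the gamma-activated sequence (GAS). The products of the target genes block virus entry, bind or degrade viral RNA, deplete nucleotides or mark proteins with the ubiquitin-like modifier ISG15. Many tumour lines keep a low level of these transcripts without added interferon.

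Values were log2 expression levels made with RMA, so a difference of 1 is a 2-fold change. The array medians ranged from 5.69 to 5.78 log2, and arrays of 1 group correlated at 0.993 to 0.998 across genes. YAP1 was left at 12.4% of its control level with mix 1 and 11.9% with mix 2, and WWTR1 at 19.8% and 18.3%. All 5 markers of the line (VIM, KRT18, CD44, EGFR and EPCAM) lay between 9.57 and 14.29 log2 in control. Of the 3 receptors that define the triple-negative type by their absence, PGR (3.56) lay below the filter, while ESR1 (6.31) and ERBB2 (7.76) lay above it. Of the 13 leukocyte markers measured, 9 to 11 lay at or below the filter in a control array and 7 to 8 in a knockdown array. Their summed log2 level was 64.05 to 65.74 in control, 69.14 to 70.0 with mix 1 and 69.52 to 70.65 with mix 2. The pan-leukocyte gene PTPRC was at 4.04, 3.80 and 4.47 log2 in the 3 groups, below the filter. Of the 6 markers tested, LYZ (log2 differences 4.19 and 4.22 with the mixes), CD14 (1.12 and 1.24) and CD3D (0.93 and 1.31) rose with both, ITGB2 fell (-1.32 and -1.58), and CD3E and ITGAM did not pass the test. The gap between 3′ and 5′ probes of ACTB, a measure of RNA integrity and labelling, was 1.38 to 1.99 log2 in control, 1.61 to 2.24 with mix 1 and 1.36 to 1.83 with mix 2, and the part of these markers and of this gap in the results was not tested.

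Most of the interferon-stimulated genes were higher after knockdown with either mix, and a small group was lower. With mix 1, 35 of the 44 tested members rose and 6 fell (limma, Benjamini-Hochberg adjusted p below 0.05), where 34.8% of all genes tested rose and 32.3% fell. With mix 2, 38 rose and 4 fell, where 36.7% of all genes rose and 31.9% fell. Since the members were chosen with earlier results of these data known, the shares of all genes stand beside these counts as description and test nothing. IFI44L, OAS1 and USP18, which passed the filter through the knockdown arrays, are among the members counted as rising with each mix. The median log2 difference of the members was 0.88 with mix 1 and 0.83 with mix 2, beside 0.005 and 0.03 over all genes tested. Rises of at least 2-fold were seen for 20 members with mix 1, where 8.09% of all genes had them, and for 19 members with mix 2, where the share was 9.06%. Falls of that size were seen for TRIM14 with mix 1 (8.28% of all genes) and for TRIM14 and GBP1 with mix 2 (9.35%). The 4 arrays of mix 1 lay wholly above the control arrays for 35 members and wholly below them for 6, where 32.3% and 31% of all genes did so. With mix 2 these counts were 36 and 4, where the shares were 33.8% and 31%. Without probe sets of the kind that can bind related transcripts (_s_at and _x_at), 32 members were tested, of which 28 rose and 2 fell with mix 1, where 34.2% and 30.7% of all genes did, and 30 rose and 1 fell with mix 2, where 34.5% and 32.1% did.

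Under both mixes 34 members rose, 3 fell and 2 moved in opposite directions, where 27.3%, 23.9% and 5.18% of all genes did so. Both comparisons share the 4 control arrays and are not independent. The 3 that fell were IFIT5, TRIM14 and LAP3. On their brightest probe sets, GBP1 and OAS3 rose with one mix and fell with the other. The other 5 members passed the threshold with 1 mix only and differed between the mixes: ISG15, UBE2L6 and SAMHD1 rose with mix 2, and HERC5 and PLSCR1 fell with mix 1. Bulk arrays cannot tell a change in the RNA of every cell from a change in the share of cells that express a gene.

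**Figure D1:**
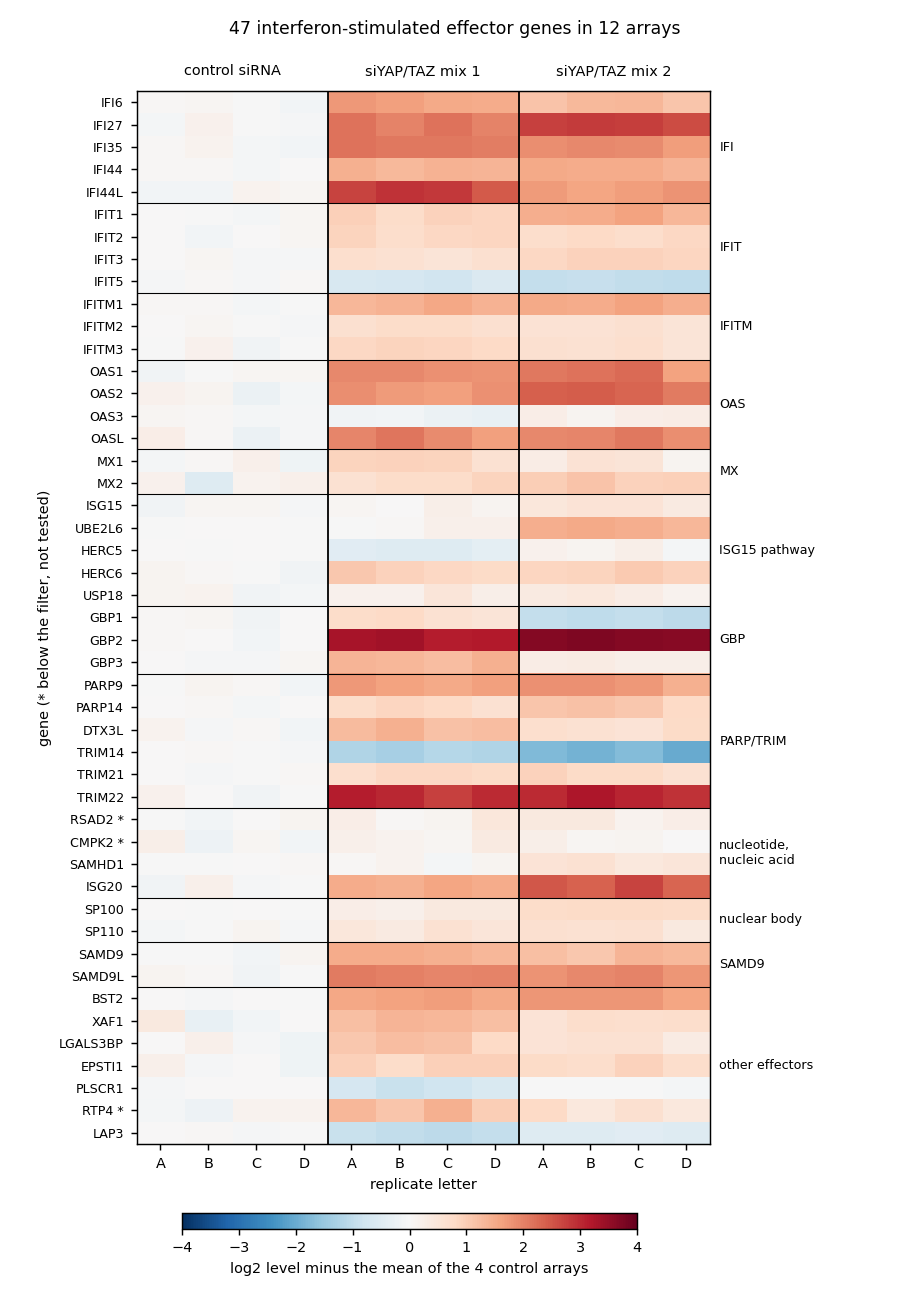
Each row is 1 of the 47 genes and each column 1 of the 12 arrays; the colour is the log2 level minus the mean of the 4 control arrays, red above and blue below it. GBP2 and TRIM22 are the darkest red rows in both knockdown groups, TRIM14 and IFIT5 are blue in both, and GBP1 is red with mix 1 and blue with mix 2.

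Sequence in front of the genes is shown for 6 members that rose, fell or moved in opposite directions. RefSeq promoter windows (GRCh38.p14) were available for 39 of the 47 members, and the 250 bases before the start site were searched on both strands for the ISRE core, GAAA followed by any 2 bases and GAAA. No window was available for IFIT2, IFITM2, OAS2, OASL, MX2, USP18, GBP2 and TRIM22. All of these rose with both mixes, where 27.3% of all genes tested did, and the counts by motif below leave them out. A gene with several start sites was counted where any of its windows held the letters. The letters were found for 26 of the 39 members, or 66.7%, and for 3.71% of all 27305 genes with a window. The members were chosen as interferon-stimulated genes, so a gap of this kind comes with the choice and says nothing about the knockdown. All 6 members shown hold the core, and none without it is shown. In the lines below capitals mark each match to that core or to its reverse complement, and each sequence runs 5′ to 3′ on the strand of the gene up to the base before the start site.
IFI27 (GRCh38.p14, chr14:94110486-94110735, plus strand): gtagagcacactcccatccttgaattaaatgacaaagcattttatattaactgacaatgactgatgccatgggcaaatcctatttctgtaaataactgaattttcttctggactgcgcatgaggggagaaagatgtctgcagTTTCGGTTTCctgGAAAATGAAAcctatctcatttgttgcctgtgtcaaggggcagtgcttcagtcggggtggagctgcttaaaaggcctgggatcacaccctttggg
IFI44L (GRCh38.p14, chr1:78620198-78620447, plus strand): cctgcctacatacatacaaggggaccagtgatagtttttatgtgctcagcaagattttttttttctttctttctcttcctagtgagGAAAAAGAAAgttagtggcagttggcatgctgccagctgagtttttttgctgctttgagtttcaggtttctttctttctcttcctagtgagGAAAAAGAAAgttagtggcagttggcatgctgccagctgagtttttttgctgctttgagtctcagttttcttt
IFIT1 (GRCh38.p14, chr10:89392373-89392622, plus strand): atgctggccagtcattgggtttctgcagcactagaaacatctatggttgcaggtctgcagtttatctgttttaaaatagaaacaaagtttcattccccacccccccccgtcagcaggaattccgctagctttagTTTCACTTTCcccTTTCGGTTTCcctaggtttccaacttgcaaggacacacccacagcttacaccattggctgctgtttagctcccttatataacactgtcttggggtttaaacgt
IFIT5 (GRCh38.p14, chr10:89414318-89414567, plus strand): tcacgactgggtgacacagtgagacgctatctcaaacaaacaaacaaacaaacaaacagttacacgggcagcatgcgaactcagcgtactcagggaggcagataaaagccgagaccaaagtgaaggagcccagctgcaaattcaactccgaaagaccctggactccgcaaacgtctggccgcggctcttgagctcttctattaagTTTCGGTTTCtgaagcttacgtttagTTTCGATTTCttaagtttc
TRIM14 (GRCh38.p14, chr9:98119223-98119472, minus strand): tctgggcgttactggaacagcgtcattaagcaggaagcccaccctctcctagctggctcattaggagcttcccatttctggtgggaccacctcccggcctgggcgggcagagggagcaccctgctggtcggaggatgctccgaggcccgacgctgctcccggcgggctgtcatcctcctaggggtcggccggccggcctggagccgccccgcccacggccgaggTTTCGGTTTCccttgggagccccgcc
GBP1 (GRCh38.p14, chr1:89065209-89065458, minus strand): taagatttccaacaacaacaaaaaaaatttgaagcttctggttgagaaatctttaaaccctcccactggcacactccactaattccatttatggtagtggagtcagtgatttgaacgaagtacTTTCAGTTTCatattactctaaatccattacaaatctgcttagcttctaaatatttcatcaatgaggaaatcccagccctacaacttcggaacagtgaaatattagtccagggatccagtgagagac

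The first 3 of these genes rose with both mixes, IFIT5 and TRIM14 fell with both, and GBP1 rose with mix 1 and fell with mix 2. Since only genes with the core are shown, their directions do not tell how matches relate to direction. In IFI27 a match on the opposite strand began 108 bases before the start and another on the gene's own strand 95 bases before it. IFIT1 had its matches at -116 and -103 and the neighbouring gene IFIT5 at -45 and -19, all on the opposite strand, while TRIM14 had 1 match at -26 and GBP1 1 at -127. Among tested members with a window, the 24 that held the core had 17 genes higher and 6 lower with mix 1 (median 0.86) and 18 higher and 4 lower with mix 2 (median 0.83). The 12 without it had 10 higher and 0 lower with mix 1 (median 1.08) and 12 higher and 0 lower with mix 2 (median 0.75). Of all genes tested, 34.8% rose and 32.3% fell with mix 1, and 36.7% rose and 31.9% fell with mix 2. IFI44L, which held the core, and OAS1, which did not, had passed the filter through the knockdown arrays.

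The GAS core TTCNNNGAA was found for 10 of the 39 members (25.6%) and for 8.09% of all genes; in IFI27 it overlapped both ISRE matches. As for the ISRE, the choice of members bears on this gap. All 10 members with the GAS core, among them IFI27, IFI35, IFITM1, OAS1, MX1 and GBP3, rose with both mixes, with medians of 1.38 and 1.28. Of all 44 tested members 34 rose with both, and of all genes tested 27.3% did. OAS1 had passed the filter through the knockdown arrays. Of the 26 tested members without the GAS core, 17 rose and 6 fell with mix 1 (median 0.81) and 20 rose and 4 fell with mix 2 (median 0.70). The TEAD core GGAATG was found for 5 of the 39 members (12.8%), a share close to the 14.3% of all genes, and 4 of the 5 were tested: IFI35, IFIT1, IFIT3 and PARP14. A match describes letters only, and no match says only that they are not in these windows.

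**Figure D2:**
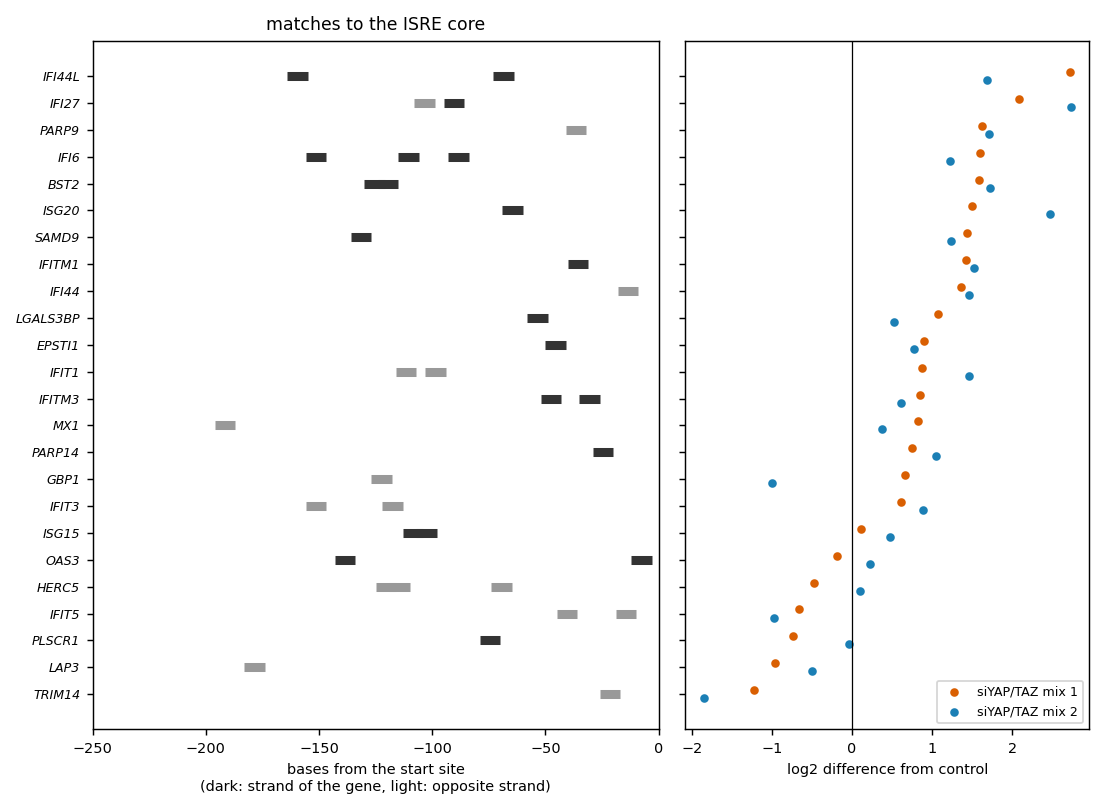
For the 24 tested genes with a match, the left panel shows the positions of ISRE core matches in bases before 1 start site per gene. Matches are dark on the strand of the gene and light on the opposite strand. Positions before further start sites of IFI27, IFI44, IFIT3 and PLSCR1 are not drawn. The right panel shows the log2 difference from control with mix 1 (orange) and mix 2 (blue). Genes are ordered by their difference with mix 1, from IFI44L (2.72) to TRIM14 (-1.22). Only genes with a match are drawn, so the order does not tell how matches relate to direction.

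The IFI group, whose members were first named for their induction by interferon, rose as a whole: all 5 members rose at least 2-fold with each mix. IFI27 read 6.39, 6.63, 6.45 and 6.42 log2 in control arrays A to D, 8.64, 8.46, 8.64 and 8.46 with mix 1 and 9.21, 9.28, 9.24 and 9.08 with mix 2. All 8 knockdown arrays lay above the 4 control arrays, and the mix 2 arrays above those of mix 1. IFI27, a membrane protein of mitochondria and the nuclear envelope, was thus 4.22-fold higher with mix 1 (SE of the log2 difference 0.07, limma adjusted p = 5.71e-12) and 6.63-fold with mix 2 (adjusted p = 2.84e-13), and the mixes differed by 0.65 (adjusted p = 2.66e-06). IFI44L read 3.98, 4.0, 4.24 and 4.19 log2 in control arrays A to D, 6.82, 6.99, 6.93 and 6.55 with mix 1 and 5.79, 5.69, 5.76 and 5.90 with mix 2. The order of the mixes was the reverse here, with every mix 1 array above every mix 2 array (difference -1.04, adjusted p = 3.4e-07); since control lay below the filter, the size of the rise is uncertain. Its neighbour and relative IFI44 rose by 1.36 and 1.46, and the interval of the difference between the mixes was -0.03 to 0.22. IFI35, a leucine zipper type protein, rose 4.33-fold and 3.56-fold, and IFI6, a small membrane protein that counters cell death, 3.01-fold and 2.32-fold. Both were higher with mix 1 than with mix 2. The only IFI35 probe set is of the kind (_s_at) that can bind related transcripts.

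The IFIT genes encode tetratricopeptide proteins that bind foreign RNA ends, and they split. IFIT1, IFIT2 and IFIT3 rose with both mixes and IFIT5, at the end of the same gene cluster, fell with both. IFIT1 read 9.15, 9.13, 9.05 and 9.22 log2 in control arrays A to D, 10.10, 9.87, 10.07 and 10.0 with mix 1 and 10.59, 10.61, 10.75 and 10.45 with mix 2. IFIT1, which binds RNA caps that lack the host's methyl mark, rose 1.83-fold and 2.76-fold, and more with mix 2 (difference 0.59, adjusted p = 7.63e-06). Its partners IFIT2 and IFIT3 had log2 rises of 0.82 and 0.61 with mix 1 and 0.76 and 0.88 with mix 2. IFIT5 read 10.67, 10.75, 10.67 and 10.74 log2 in control arrays A to D, 10.08, 10.02, 9.94 and 10.14 with mix 1 and 9.74, 9.79, 9.72 and 9.68 with mix 2. Every knockdown array of IFIT5, which binds triphosphate ends, lay below every control array, and mix 2 lay below mix 1. The log2 differences were -0.66 (SE 0.06, adjusted p = 7.43e-08) and -0.98 (adjusted p = 8.78e-10). A second probe set of IFIT5 fell too, by -0.40 and -0.68; both probe sets are of the kind (_s_at) that can bind related transcripts.

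The IFITM genes, whose products sit in membranes and hinder virus fusion, all rose with both mixes. IFITM1 was at 8.61 ± 0.06 log2 (SD, n = 4) in control, 10.03 ± 0.10 with mix 1 and 10.13 ± 0.06 with mix 2, rises of 2.68-fold and 2.87-fold. IFITM2 rose 1.61-fold and 1.5-fold and IFITM3 1.8-fold and 1.53-fold, from control levels of 11.07 ± 0.06 and 11.64 ± 0.13. All 3 were read by probe sets of the shared kind, and IFITM2 and IFITM3 are near-identical, so how the signal divides between them is uncertain.

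Among the OAS genes, which encode oligoadenylate synthetases that switch on RNase L, OAS1, OAS2 and OASL rose more than 3-fold with each mix and OAS3 moved by small amounts in opposite directions. OAS2 read 7.12, 7.06, 6.71 and 6.87 log2 in control arrays A to D, 8.81, 8.65, 8.59 and 8.76 with mix 1 and 9.33, 9.37, 9.27 and 9.01 with mix 2. The 3 groups of OAS2 were apart in the order control, mix 1, mix 2. Its log2 rise was 1.76 with mix 1 and 2.31 with mix 2, and the mixes differed by 0.54 (adjusted p = 0.000292). OASL, which has lost the synthetase activity and aids RNA sensing, rose by 1.91 and 1.96, with an interval of -0.19 to 0.29 for the difference between the mixes. OAS1 rose by 1.86 and 2.04 from a control level of 5.11 ± 0.11, below the filter. OAS3 read 7.5, 7.46, 7.32 and 7.36 log2 in control arrays A to D, 7.27, 7.31, 7.18 and 7.12 with mix 1 and 7.66, 7.52, 7.67 and 7.70 with mix 2. Narrowly, all mix 1 arrays lay below control and all mix 2 arrays above it. OAS3, which lies between OAS1 and OAS2 in the gene cluster, was -0.19 with mix 1 (adjusted p = 0.018) and 0.23 with mix 2 (adjusted p = 0.00606). The mix 1 call was lost without control replicate A (-0.16, adjusted p = 0.0624), control replicate B (-0.17, adjusted p = 0.0502) or mix 1 replicate D (-0.16, adjusted p = 0.059). A second OAS3 probe set had a mean over all arrays below the filter and was not tested. Its control mean was 5.635 log2, and it was lower with both mixes (-0.64 and -0.465). The opposite directions of OAS3 thus rest on its brightest probe set.

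The MX genes encode dynamin-like GTPases that trap viral particles in the cytoplasm or at the nuclear pore. MX1 read 5.60, 5.72, 5.87 and 5.51 log2 in control, 6.56, 6.60, 6.56 and 6.27 with mix 1 and 5.98, 6.24, 6.19 and 5.77 with mix 2. The mix 1 arrays stood above the rest, and mix 2 overlapped control although the fitted rise passed (0.37, adjusted p = 0.00801, against 0.82 with mix 1). MX2 rose by 0.75 and 1.0. Both genes lay close to the filter in control, at 5.68 ± 0.16 and 5.48 ± 0.34, so their levels there were near background.

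**Figure D3:**
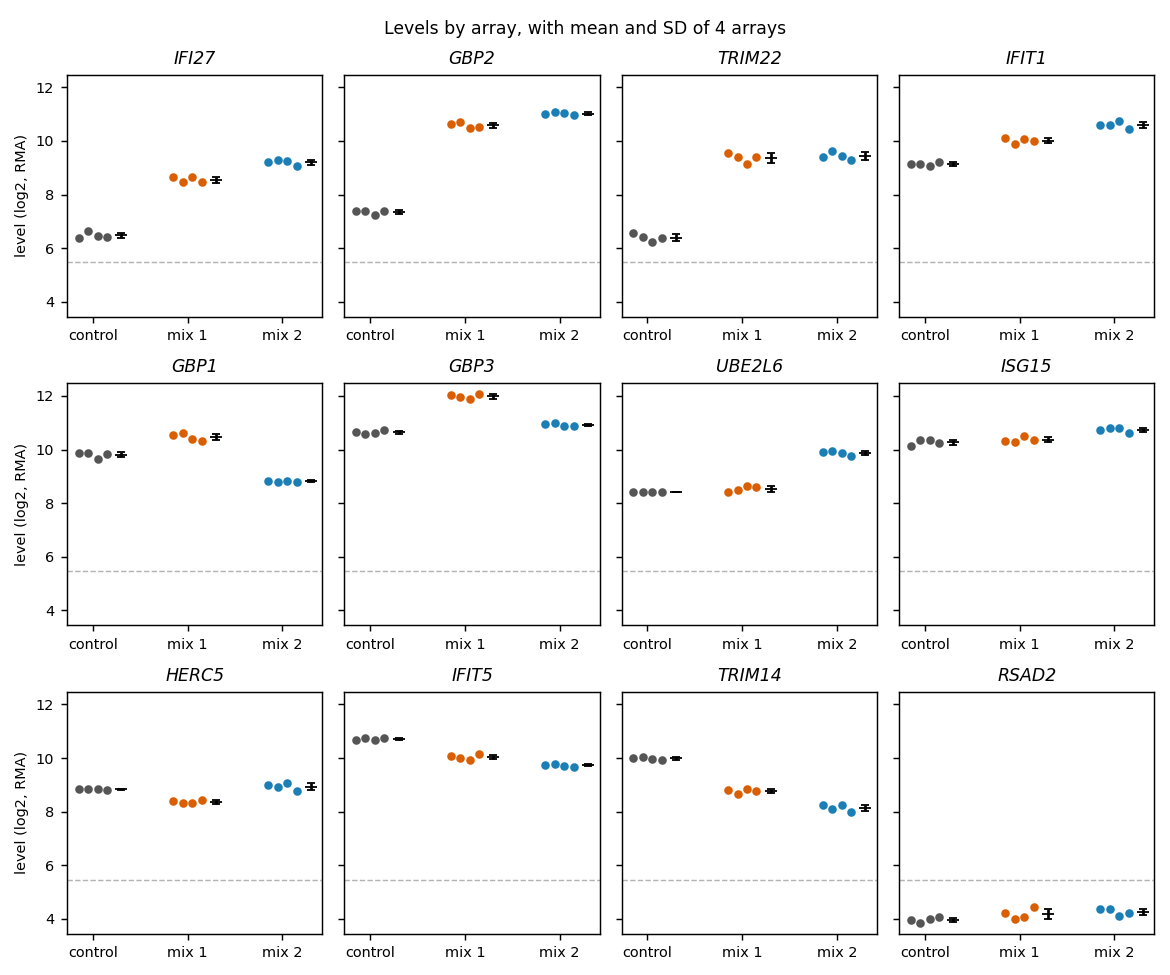
Each panel shows the log2 level of 1 gene in the 12 arrays (points) with the mean and SD of the 4 arrays of each group beside them; the dashed line is the filter of 5.46 log2. GBP1 and GBP3 separate the mixes, UBE2L6 rises with mix 2 alone, and RSAD2 stays below the line in every array.

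In the ISG15 pathway the modifier and 2 of the enzymes that attach it differed between the mixes. ISG15 read 10.14, 10.35, 10.35 and 10.23 log2 in control arrays A to D, 10.33, 10.29, 10.5 and 10.37 with mix 1 and 10.73, 10.80, 10.80 and 10.63 with mix 2. The mix 1 and control arrays of ISG15 overlapped (0.11, interval -0.04 to 0.25, adjusted p = 0.194), and mix 2 lay above both (0.47, adjusted p = 2.01e-05). UBE2L6 read 8.41, 8.43, 8.43 and 8.42 log2 in control arrays A to D, 8.41, 8.48, 8.63 and 8.61 with mix 1 and 9.89, 9.95, 9.86 and 9.76 with mix 2. UBE2L6, the enzyme that carries ISG15 to its ligases, was 2.72-fold higher with mix 2 (adjusted p = 3.52e-11), while with mix 1 the interval was -0.02 to 0.24 (adjusted p = 0.133). The difference between the mixes, 1.33 (SE 0.06, adjusted p = 3.61e-10), was the largest in favour of mix 2 among the 44 tested members.

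HERC5, the main ISG15 ligase in human cells, fell with mix 1. HERC5 read 8.86, 8.83, 8.84 and 8.81 log2 in control arrays A to D, 8.38, 8.32, 8.31 and 8.44 with mix 1 and 9.0, 8.93, 9.06 and 8.76 with mix 2. All mix 1 arrays lay below the rest, while mix 2 overlapped control. The log2 difference was -0.47 with mix 1 (adjusted p = 1.26e-05) and 0.10 with mix 2 (adjusted p = 0.179); without mix 2 replicate D, the lowest of its group, the latter passed as a rise (0.16, adjusted p = 0.0146), as it did after quantile normalization (0.15, adjusted p = 0.0266). HERC6, its neighbour, rose with both, by 0.89 and 0.93. USP18, the protease that removes ISG15 and damps the interferon receptor, was dim, at 5.43 ± 0.13 in control, and rose by 0.26 (adjusted p = 0.018) and 0.30 (adjusted p = 0.00733). The mix 1 call of USP18 was lost without control replicate C (0.215, adjusted p = 0.0613), control replicate D (0.23, adjusted p = 0.0528) or mix 1 replicate C (0.19, adjusted p = 0.0617).

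The GBP genes encode large GTPases best known as targets of interferon gamma that attack membranes around pathogens, and the 3 neighbours on chromosome 1 behaved in 3 ways. GBP2 read 7.40, 7.37, 7.24 and 7.37 log2 in control arrays A to D, 10.63, 10.70, 10.49 and 10.51 with mix 1 and 11.02, 11.08, 11.03 and 10.97 with mix 2. GBP2 had the largest rise of any tested member with both mixes, 9.43-fold (SE 0.06, adjusted p = 2.74e-14) and 12.8-fold (adjusted p = 1.04e-14), and its second probe set rose by 3.10 and 3.13 log2. GBP1 read 9.86, 9.88, 9.66 and 9.83 log2 in control arrays A to D, 10.53, 10.60, 10.41 and 10.32 with mix 1 and 8.84, 8.78, 8.84 and 8.77 with mix 2. GBP1 lay above control in every mix 1 array (0.66, adjusted p = 8.46e-07) and below control in every mix 2 array (-1.0, adjusted p = 7.52e-09). The difference between the mixes was -1.66 (SE 0.07, adjusted p = 1.38e-10), and both other GBP1 probe sets above the filter, at -1.69 and -1.53, went the same way. GBP3 read 10.67, 10.59, 10.61 and 10.72 log2 in control arrays A to D, 12.02, 11.97, 11.87 and 12.07 with mix 1 and 10.94, 10.98, 10.89 and 10.89 with mix 2. Mix 2 lay just above control and mix 1 above both. GBP3 rose 2.52-fold with mix 1 and 1.21-fold with mix 2, a difference of -1.06 (adjusted p = 1.8e-09).

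PARP9 and DTX3L encode partners in one ubiquitin ligase complex and stand head to head, with promoter windows that share 137 bases. PARP9 read 6.97, 7.09, 7.03 and 6.88 log2 in control arrays A to D, 8.74, 8.59, 8.52 and 8.62 with mix 1 and 8.83, 8.81, 8.74 and 8.41 with mix 2. DTX3L read 8.75, 8.56, 8.65 and 8.5 log2 in control arrays A to D, 9.87, 10.04, 9.80 and 9.84 with mix 1 and 9.28, 9.23, 9.17 and 9.37 with mix 2. Both rose with each mix and their groups did not overlap control, but the pair differed between the mixes. PARP9 was 1.63 and 1.71 (difference 0.08, interval -0.11 to 0.27), while DTX3L was 1.27 and 0.65 (difference -0.63, limma adjusted p = 4.2e-06). The PARP9 rise rests on its brightest probe set, which is of the shared kind (_s_at). Another PARP9 probe set, not of that kind, had a mean of 5.4575 log2, just below the filter, and was not tested. It differed from control by 0.005 with mix 1 and 0.0775 with mix 2. PARP14, an ADP-ribosyltransferase close by on the same chromosome, rose by 0.75 and 1.04.

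Of the TRIM proteins, TRIM22 and TRIM21 rose and TRIM14 fell. TRIM22 read 6.56, 6.40, 6.24 and 6.38 log2 in control arrays A to D, 9.54, 9.40, 9.13 and 9.39 with mix 1 and 9.39, 9.63, 9.45 and 9.29 with mix 2. Both knockdown groups lay far above control and overlapped each other. The only TRIM22 probe set is of the shared kind. TRIM22, a nuclear ubiquitin ligase that restricts retroviruses, rose 7.84-fold (SE 0.10, adjusted p = 2.93e-12) and 8.25-fold (adjusted p = 1.49e-12), and the interval of the difference between the mixes was -0.13 to 0.28. TRIM21, an antibody receptor of the cytosol, rose by 0.77 and 0.76. TRIM14 read 10.02, 10.05, 9.97 and 9.94 log2 in control arrays A to D, 8.80, 8.66, 8.85 and 8.78 with mix 1 and 8.23, 8.10, 8.25 and 7.99 with mix 2. TRIM14, an adaptor at mitochondria in RNA sensing, was 2.33-fold lower with mix 1 and 3.61-fold lower with mix 2, with the groups apart in the order control, mix 1, mix 2 (adjusted p = 6.05e-10, 5.95e-12 and, between the mixes, 1.87e-06). Both other TRIM14 probe sets above the filter fell with both mixes (-1.07 and -0.64 with mix 1, -1.45 and -0.85 with mix 2). All 3 are of the shared kind, and the remaining TRIM14 probe sets, not of that kind, lay below the filter and differed by 0.03 and 0.19 with mix 1.

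RSAD2 and CMPK2, neighbours whose products make an antiviral nucleotide and are among the strongest targets of interferon in many cells, stayed near background. RSAD2 read 3.94, 3.85, 3.98 and 4.06 log2 in control arrays A to D, 4.22, 4.0, 4.06 and 4.42 with mix 1 and 4.35, 4.35, 4.11 and 4.23 with mix 2. CMPK2 read 3.27, 2.85, 3.13 and 2.94 log2 in control arrays A to D, 3.24, 3.19, 3.13 and 3.42 with mix 1 and 3.27, 3.11, 3.16 and 3.07 with mix 2. All 24 of these values lay below the filter, and without a filter only the small rise of RSAD2 with mix 2 passed (0.30, interval 0.10 to 0.50, adjusted p = 0.0133). ISG20, an RNA exonuclease, rose 2.81-fold and 5.54-fold, from 6.5 ± 0.16 log2 to 7.99 ± 0.06 and 8.97 ± 0.17, a difference of 0.98 between the mixes (adjusted p = 4.1e-07).

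SAMHD1 breaks down nucleotides, and its probe sets disagreed. The brightest rose with mix 2 (0.51, adjusted p = 2.13e-06) and was at 0.06 with mix 1 (interval -0.07 to 0.18). The next 2 probe sets were at 0.02 with mix 1, and another pair fell, by -0.72 and -0.96, with mix 1 and was at -0.02 with mix 2. All 5 were higher with mix 2 than with mix 1, by 0.27 to 0.94.

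SP100 and SP110 are parts of nuclear bodies. SP100 rose by 0.31 and 0.75, and more with mix 2 (difference 0.43, adjusted p = 9.28e-06). One of its other probe sets fell with mix 1 (-0.52, adjusted p = 0.00135), and with the mean of its probe sets the mix 1 rise did not pass (0.12, adjusted p = 0.0666). SP110 rose by 0.47 and 0.58 on its brightest probe set, where 2 others rose by 1.77 and 1.31 with mix 1, so the size depends on the probe set.

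SAMD9 and SAMD9L, neighbouring genes for cytoplasmic proteins that restrict poxviruses and slow growth, rose together. SAMD9L read 6.83, 6.77, 6.59 and 6.72 log2 in control, 8.81, 8.74, 8.67 and 8.72 with mix 1 and 8.52, 8.65, 8.72 and 8.48 with mix 2, rises of 4.02-fold and 3.64-fold. SAMD9 rose 2.69-fold and 2.35-fold. The lower level of SAMD9 with mix 2 than with mix 1 was small (-0.20, adjusted p = 0.0314) and missed the threshold in 8 alternatives, 4 of which left out an array (mix 1 A, adjusted p = 0.0812; mix 1 B, 0.0725; mix 2 A, 0.0672; mix 2 B, 0.109).

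Among the other effectors, BST2 (tetherin), which holds budding virus at the cell surface, rose most. BST2 read 9.64, 9.58, 9.64 and 9.59 log2 in control arrays A to D, 11.16, 11.21, 11.29 and 11.13 with mix 1 and 11.39, 11.37, 11.37 and 11.19 with mix 2. The rises were 3-fold (adjusted p = 1.22e-11) and 3.29-fold (adjusted p = 3.6e-12), with no overlap with control. XAF1, which promotes cell death, LGALS3BP, a secreted glycoprotein that binds galectins, and EPSTI1 rose by 1.28, 1.07 and 0.89 with mix 1 and by 0.65, 0.52 and 0.78 with mix 2. XAF1 and LGALS3BP were lower with mix 2 than with mix 1 (adjusted p = 0.000239 and 0.000445). A second XAF1 probe set above the filter rose by 0.915 and 0.83, and its difference between the mixes did not pass (-0.08, limma adjusted p = 0.777). RTP4, below the filter, had group means of 4.22, 5.44 and 4.79, and its arrays did not overlap between any 2 groups.

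PLSCR1 and LAP3 ran against this. PLSCR1 read 9.86, 9.93, 9.95 and 9.94 log2 in control arrays A to D, 9.26, 9.02, 9.13 and 9.32 with mix 1 and 9.89, 9.89, 9.89 and 9.85 with mix 2. PLSCR1, a phospholipid scramblase with antiviral activity, fell with mix 1 (-0.74, adjusted p = 9.82e-08) and with mix 2 had an interval of -0.18 to 0.10. LAP3 read 11.44, 11.48, 11.38 and 11.41 log2 in control arrays A to D, 10.54, 10.44, 10.38 and 10.48 with mix 1 and 10.90, 10.92, 10.97 and 10.92 with mix 2. Mix 1 was the lowest group and mix 2 lay between it and control. LAP3, a leucine aminopeptidase that trims peptides, fell 1.96-fold and 1.41-fold (adjusted p = 4.94e-10 and 6.53e-07), more with mix 1. As for IFIT5 and TRIM14, the probe sets of PLSCR1 and LAP3 above the filter were of the shared kind.

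**Figure D4:**
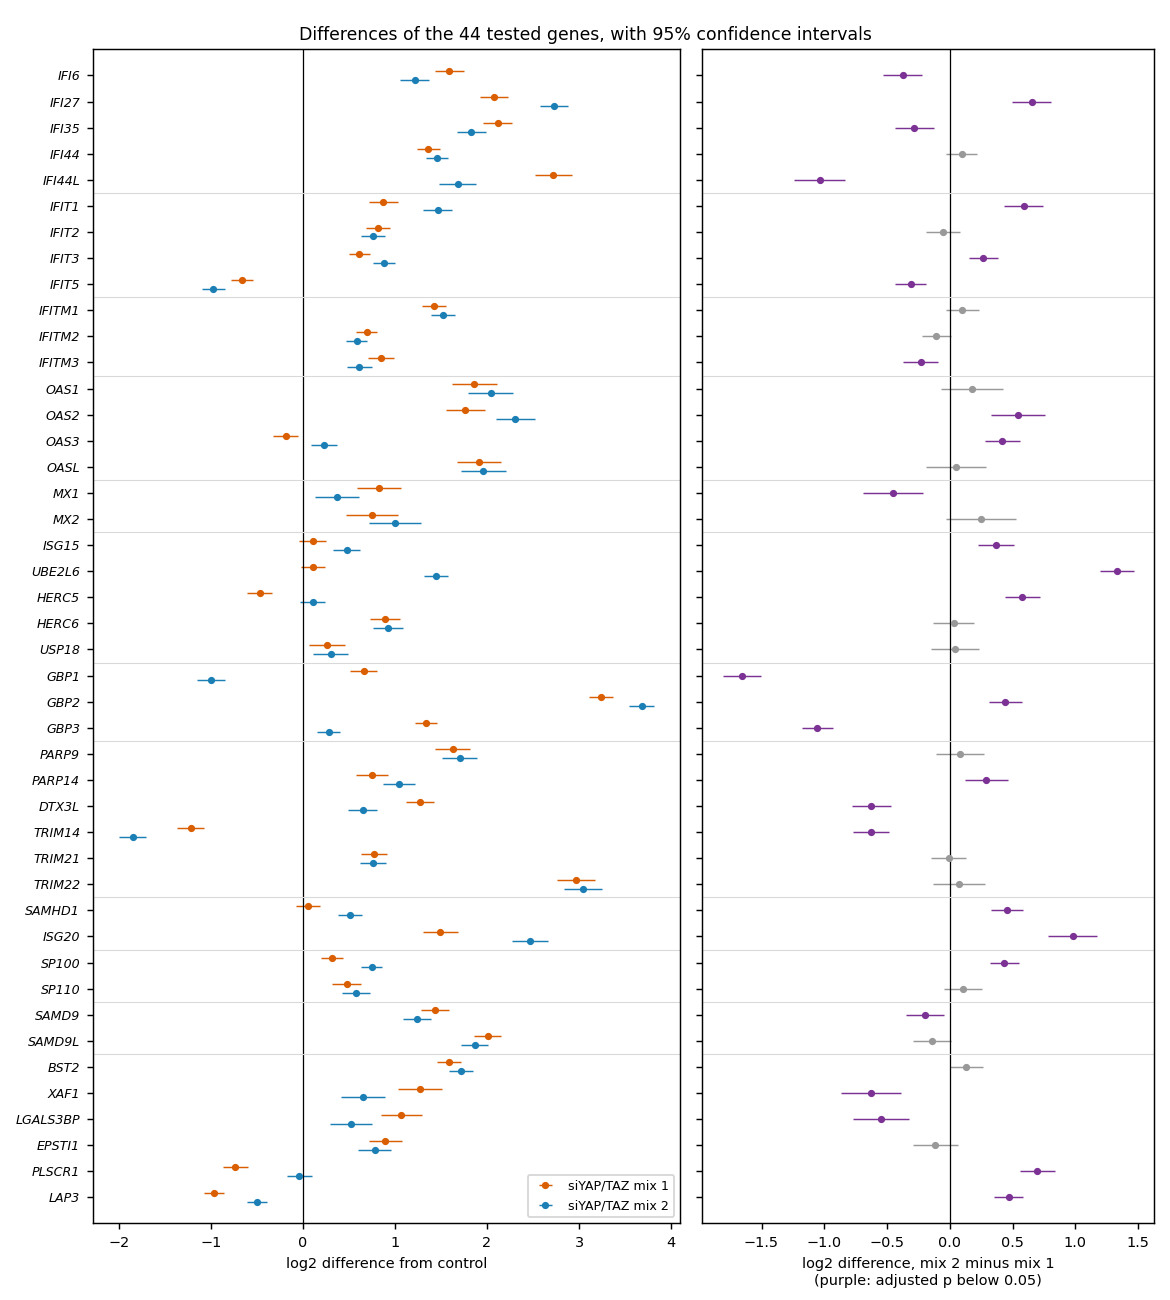
Points are log2 differences of the 44 tested genes and bars their 95% confidence intervals from the fit, on the left for mix 1 (orange) and mix 2 (blue) against the same control arrays and on the right for mix 2 minus mix 1. Most points on the left lie right of 0, and on the right UBE2L6 (1.33) and GBP1 (-1.66) lie farthest from 0.

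Between the mixes, 15 members were higher with mix 2 and 13 lower, where 28.7% and 25% of all genes were, and 16 did not pass. The arrays of the mixes did not overlap for 15 higher and 12 lower members, where 24.3% and 21.7% of all genes had this. Differences of at least 2-fold were limited to UBE2L6, higher with mix 2, and GBP1, GBP3 and IFI44L, lower with it, where 2.63% and 3.61% of all genes had them. The median difference was 0.08, beside 0.025 over all genes. After UBE2L6 the members most in favour of mix 2 were ISG20 (0.98), PLSCR1 (0.70), IFI27 (0.65) and IFIT1 (0.59). Those in favour of mix 1, after GBP1, GBP3 and IFI44L, were TRIM14 (-0.63), DTX3L (-0.63) and XAF1 (-0.63), of which TRIM14 had fallen with both. The second XAF1 probe set was at -0.08 and did not pass.

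The members lie close together in the genome in part: 28 of the 47 had another member within 3 protein-coding genes, and 14 pairs had none between them. Direct neighbours did not always move alike. IFIT1 and IFIT5 (with mix 1 0.87 and -0.66), OAS1 and OAS3 (1.86 and -0.19), HERC6 and HERC5 (0.89 and -0.47) and, with mix 2, GBP1 and GBP2 (-1.0 and 3.68) had opposite signs. SAMD9 and SAMD9L, IFI44 and IFI44L, IFIT2 and IFIT3, and PARP9 and DTX3L shared theirs.

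Other probe sets of the same genes gave a second reading of the same RNA. Of 25 further probe sets above the filter that belong to members called with mix 1, 24 moved in the same direction and passed, and 1, of SP100, moved the other way. With mix 2, 25 of 28 did so and 0 passed in the other direction (limma over all probe sets above the filter).

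**Figure D5:**
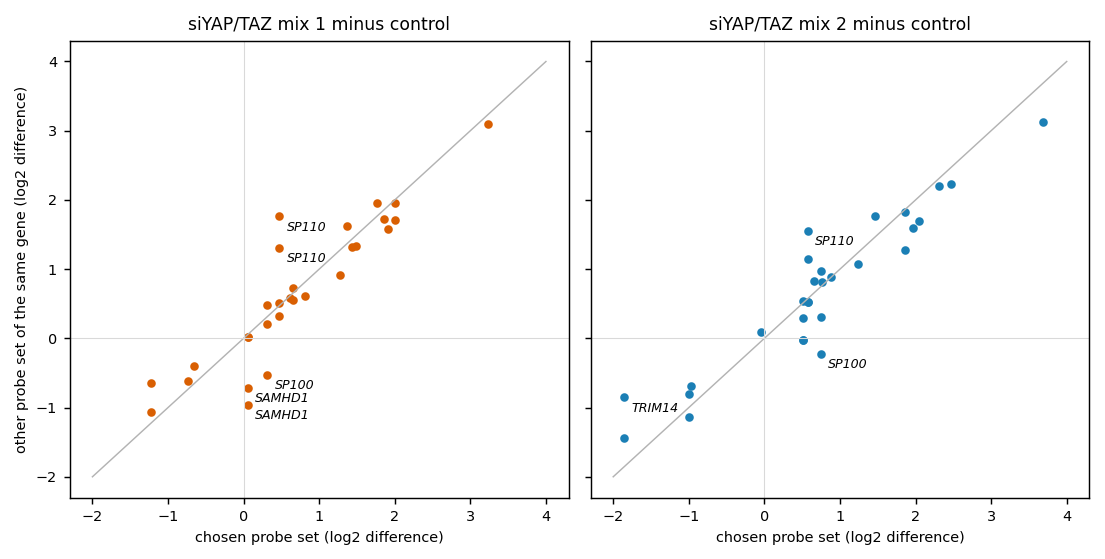
Each point is a further probe set above the filter, with the log2 difference of its gene's chosen probe set on the horizontal axis and its own on the vertical axis, for mix 1 and mix 2 against control; the line marks equality. With mix 1 the points farthest from the line are 2 SP110 probe sets above it (1.77 and 1.31) and, below it, 2 of SAMHD1 (-0.72 and -0.96) and 1 of SP100 (-0.52).

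The genes that pass the interferon signal on were examined in a list of 44 ligands, receptors, kinases, sensors, transcription factors and regulators, of which 41 had a usable probe set, 32 passed the filter and 3 were not analysed here. With mix 1, 24 rose and 2 fell (median 0.50), where 34.8% of all genes rose and 32.3% fell (median 0.005). With mix 2, 24 rose and 3 fell (median 0.34), where 36.7% rose and 31.9% fell (median 0.03). This list too was chosen with earlier results of these data known, so the shares are description and test nothing. All 8 interferon genes measured, among them IFNB1 (4.20, 3.97 and 4.08 log2 in the 3 groups) and IFNG (4.31, 4.12 and 4.16), lay below the filter in every group, with differences from control between -0.22 and 0.20.

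The largest rises of the list with mix 1 were those of the endosomal RNA sensor TLR3 (1.84, adjusted p = 1.28e-10), the cytosolic RNA sensor IFIH1 (1.56, adjusted p = 2.86e-09) and IRF9 (1.42, adjusted p = 5.96e-11). With mix 2 they were IFIH1 (1.75, adjusted p = 6.58e-10), IRF9 (1.72, adjusted p = 6.31e-12) and IFNLR1, a subunit of the receptor for type III interferon (1.41, adjusted p = 1.47e-10). IRF9, the DNA-binding partner in the ISRE complex, rose from 8.11 ± 0.12 log2 (SD, n = 4) to 9.53 ± 0.04 and 9.83 ± 0.04. The feedback inhibitors SOCS1 (-0.65 and -0.86) and SOCS3 (-0.32 and -0.95) fell with both mixes. The receptor subunit IFNAR1 rose with mix 1 (0.40, adjusted p = 0.000401) and fell with mix 2 (-0.75, adjusted p = 7.28e-07), with a difference between the mixes of -1.15 (adjusted p = 2.06e-08).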

How the data were processed

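RNA of 12 samples was hybridised to Affymetrix arrays with 54675 probe sets. The authors deposited 1 table of log2 values, which came from RMA according to the submitters' processing notes; the sources used here name no software, version or options for it. RMA usually gives all arrays 1 distribution, so a shift of all genes would not be seen. Arrays have no read depth, and their number limits the precision.

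Probe sets with 1 gene symbol in the platform annotation (41097) were used without control probe sets; symbols were updated through gene IDs with RefSeq (GRCh38.p14) for 41043. Genes were tested where the mean of the brightest probe set exceeded the 40th percentile (5.46 log2). Differences came from limma 3.58.1 in R 4.3.3 (3 group means, 9 residual degrees of freedom, default eBayes), with two-sided p-values, Benjamini-Hochberg adjustment over all genes of a comparison and a threshold of 0.05.

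Members and lists were chosen with earlier results of these data known. Any member could be named; of the signalling list, the 3 largest changes per direction, the interferon genes and IRF9. Same-letter arrays of mix 1 and control deviated together, with correlations of 0.251 to 0.409, all above 0.1. For letter B the highest correlation with another letter, 0.374, was above its own 0.251, while for A, C and D it was below their own. The letters may thus pair samples, but the values do not settle it and the labels do not say so. With mix 2 and control the same-letter correlations were 0.0338 to 0.212, and for A, B and C another letter gave a higher one.

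Alternatives were other filters, probe set rules, normalizations and variance models, only the compared groups, a replicate block and leaving out each array.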

Additional observations from a re-analysis of the deposited data

Results flagged for a closer look

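In 7 of 141 groups of 4 arrays (47 genes in 3 groups), 1 array lay far from the other 3 by Dixon's gap test; chance alone flags about 1 in 20 groups. In mix 2, replicate D was the lowest for IFI44 (9.19 against a next value of 9.33), SP110 (8.68 against 8.90), BST2 (11.19 against 11.37) and PLSCR1 (9.85 against 9.89 in the other 3). In mix 1, replicate D was the lowest for MX1 (6.27 against 6.56) and replicate B for EPSTI1 (6.71 against 6.92). In control, replicate B was the lowest for MX2 (4.97 against 5.62).

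GBP1 and OAS3 passed the threshold in opposite directions under the mixes, and the difference between the mixes passed for both. It was -1.66 log2 for GBP1 and 0.42 for OAS3. A second OAS3 probe set, below the filter and not tested, was lower than control with both mixes (-0.64 and -0.465).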

How the results depend on the processing

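Of 44 tested members, 40 kept the same call (higher, lower or not past the threshold) in all alternatives run for mix 1 against control. The same held for 43 with mix 2 against control and for 35 with mix 2 against mix 1. Among members that did not pass, the sign of a small difference could change, as for PLSCR1 with mix 2 against control (-0.06 to 0.0225). The replicate block changed no member's call in any of the 3 comparisons (35 higher and 6 lower with mix 1, 38 and 4 with mix 2). Without shared probe sets 32 members were tested, of which 2 were lower with mix 1 and 1 with mix 2, and the median differences were 0.98 and 0.98. IFIT5, TRIM14, LAP3 and PLSCR1 were then not tested. Nor were IFI35, IFITM1, IFITM2, IFITM3, ISG15, PARP9, TRIM22 and SP110. Without a filter all 47 members were tested. With mix 1, 36 were higher and 6 lower, where 4862 and 4489 of all 19775 genes were. With mix 2, 40 were higher and 4 lower, where 5222 and 4401 of all genes were. SAMHD1 turned to a fall with mix 1 when a gene's probe sets were averaged (-0.32, adjusted p = 0.000299), since its dimmer probe sets fell. In the signalling list, the count lower with mix 1 went from 2 to 1 with a filter at the 60th percentile or without shared probe sets and to 4 with averaged probe sets, and that with mix 2 from 3 to 5 with averaged probe sets.

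Leaving out 1 array at a time gave 34 to 35 members higher and 5 to 6 lower with mix 1, and 38 to 39 and 4 with mix 2. Between the mixes it gave 15 to 20 higher and 12 to 14 lower. Of all 13225 genes, 4392 to 4719 were then higher and 4120 to 4392 lower with mix 1. With mix 2 these were 4644 to 4938 and 4040 to 4284, and between the mixes 3466 to 4078 and 3086 to 3280. The highest count of members between the mixes, 20, came without mix 2 replicate D. There the differences of IFI44 (0.13), OAS1 (0.32), PARP9 (0.18), SP110 (0.16) and BST2 (0.18) passed. The causes were not tested. Genes near the filter, such as IFI44L, OAS1, USP18 and MX2, have uncertain fold sizes.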
